A study of Mus musculus with 6 samples.

Results

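F-box proteins are the parts of SCF ubiquitin ligases that choose which protein is marked for destruction. The 76 genes described here are the protein-coding genes of the mouse count table whose symbol begins with Fbxl, Fbxo or Fbxw followed by a number, without Fbxo5 and Fbxo43, out of 54532 genes in all and 22046 protein-coding ones. They fall into 18 Fbxl, 35 Fbxo and 23 Fbxw genes. All were measured by RNA-seq in 6 libraries of oocytes from C57BL/6J mice aged 6 to 7 weeks. The 3 AMH libraries came from mice given recombinant mouse anti-Müllerian hormone, expressed in E. coli, at 300 ng a day into the peritoneum from 21 days of age. The 3 control libraries carry the label control. What the control mice received, how long the injections lasted, the stage of the oocytes and the number of oocytes or mice behind a library are not stated in any source used here, so p-values measure only the spread between these libraries. Total counts were 66392859 to 72109080 per library.

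Anti-Müllerian hormone is a hormone of the TGF-beta family that granulosa cells of growing follicles make, and it is known for restraining the recruitment of primordial follicles. In an SCF ligase the scaffold Cul1 carries the RING protein Rbx1 at one end and Skp1 at the other, and Skp1 holds the F-box motif of 1 interchangeable F-box protein. Fbxw proteins grip their substrates with WD40 repeats, Fbxl proteins with leucine-rich repeats, and Fbxo proteins with other domains. Attachment of the small protein Nedd8 to Cul1 switches the ligase on, and the COP9 signalosome takes it off again. The ligases time the cell cycle and the egg's stock of maternal proteins, and the mouse has a run of Fbxw genes on chromosome 9 that is known for transcripts in oocytes.

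The libraries did not sort by label alone. Control 3 and AMH 3 had the lowest chi-square per degree of freedom of all pairs, 55.9, against 66.0 for controls 1 and 2 and 69.2 for AMH 1 and 2, so no 2 libraries agreed within sampling noise. The summed CPM (counts scaled to library size with TMM factors) of 20 oocyte markers was 43450, 47000 and 37620 in controls 1 to 3 and 21940, 21610 and 36770 in AMH 1 to 3 (two-sided exact permutation p = 0.1, the smallest that 3 against 3 libraries allow, adjusted p = 0.175 over 7 marker lists). Of the oocyte markers, 14 of 20 were lower in every AMH library than in any control and 0 were higher. The 20 cumulus or granulosa markers summed to 1209, 487.4 and 3857 CPM in the controls and 4677, 4529 and 3714 CPM in the AMH libraries (two-sided exact permutation p = 0.2, adjusted p = 0.233). Of these 20, 6 were higher in every AMH library than in any control, and 1 was lower. Summed levels of leukocyte markers were 13.9 to 29.9 CPM in controls and 66.9 to 102.3 CPM with AMH, those of erythroid markers 1.11 to 5.64 and 22.8 to 356.6 CPM, and those of oviduct markers 21.6 to 172.5 and 144.4 to 765.9 CPM. The sum of 5 endothelium markers, at 183.2 to 222.6 CPM in controls and 105.5 to 178.2 CPM with AMH, was lower in every AMH library. The oocyte sum was lower in every AMH library too. Single endothelium markers went both ways: without overlap between groups, 2 of the 5 were lower and 1 was higher. Of all tested genes, 23.3% were lower and 26.9% higher without overlap. Theca or stroma markers stayed between 3.85 and 28.9 CPM in all 6 libraries, and no marker of any list was at 0 in all of them. Of the 20 oocyte markers, Sohlh1 was the only one at 0 counts in some library. Oocyte markers thus stood in every library, with markers of other cell types beside them, and the part of that mixture in the results below was not tested. In such bulk libraries, fewer cells of a type and less RNA per cell cannot be told apart.

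The chromosome 9 run holds the F-box transcript of highest FPKM here, Fbxw24, and its 14 coding members all stand on the minus strand at chr9:109139447-109790670 (GRCm38), over 651.2 kb, with gaps of 12.1 to 56.7 kb between neighbours. The other 10 genes inside the run are Fbxw23, annotated as a transcribed pseudogene, and 9 genes with at most 23 counts in any library. The division of Fbxw into these 14 genes and 9 elsewhere was made after their values were seen. RefSeq promoters (GRCm38.p6) were at hand for 57 of the 76 F-box genes and for 11 of the 14, with Fbxw13, Fbxw22 and Fbxw27 unmatched. Of these, 5 are shown because they carry the sequence that the run shares, over a range of levels from Fbxw24, the highest, to Fbxw26, and Fbxw9 and Fbxw17 are shown as 2 members elsewhere whose values ran the other way. Each is the 120 bases before the transcript start, read on the gene's own strand, with the letters CAGCTG and TTTAAA in capitals.
Fbxw24 (chr9:109626060-109626179, minus strand): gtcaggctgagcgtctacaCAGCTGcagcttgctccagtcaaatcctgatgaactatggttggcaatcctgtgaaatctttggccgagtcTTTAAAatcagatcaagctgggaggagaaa
Fbxw14 (chr9:109287677-109287796, minus strand): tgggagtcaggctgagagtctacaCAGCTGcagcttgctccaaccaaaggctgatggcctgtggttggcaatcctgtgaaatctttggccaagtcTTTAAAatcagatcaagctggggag
Fbxw28 (chr9:109339660-109339779, minus strand): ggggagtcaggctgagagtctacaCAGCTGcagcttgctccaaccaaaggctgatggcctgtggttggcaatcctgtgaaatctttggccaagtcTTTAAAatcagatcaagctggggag
Fbxw16 (chr9:109449141-109449260, minus strand): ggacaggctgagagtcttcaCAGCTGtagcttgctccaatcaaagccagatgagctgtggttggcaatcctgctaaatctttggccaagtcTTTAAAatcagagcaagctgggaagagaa
Fbxw26 (chr9:109746090-109746209, minus strand): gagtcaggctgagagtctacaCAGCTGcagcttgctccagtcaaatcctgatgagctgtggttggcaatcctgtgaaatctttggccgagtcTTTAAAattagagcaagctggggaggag
Fbxw9 (chr8:85059999-85060118, plus strand): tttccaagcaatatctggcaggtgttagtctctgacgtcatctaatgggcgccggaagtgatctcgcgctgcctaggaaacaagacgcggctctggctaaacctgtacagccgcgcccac
Fbxw17 (chr13:50417744-50417863, plus strand): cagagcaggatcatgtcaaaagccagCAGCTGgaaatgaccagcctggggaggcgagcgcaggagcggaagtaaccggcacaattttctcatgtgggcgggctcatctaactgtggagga

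Within the 250 bases before the start, on both strands, CAGCTG stood in 11 of 11 promoters of the run and in 12.8% of all 27025 promoters of the table. TTTAAA stood in 10 of 11, against 12.1% of all, and TTTGGC in 11 of 11, against 11.4%. TATAAA was in 0 of 11 (13.0% of all) and TAATTG in 0 of 11 (7.34%), while CANNTG, which takes in every CAGCTG, was in 11 of 11 and in 66.0% of all. The letters AAATCTTTGGC, which include TTTGGC, are the longest stretch common to all 11 promoters of the run. They were picked for that, so their presence in 11 of 11 was fixed in advance. In the whole table they were found in 15 promoters, these 11 among them. The other listed stretches common to the 11, of 8 or 9 letters, stood in 81 to 553 promoters. Outside the run, CAGCTG stood in 2 of 7 Fbxw, 2 of 14 Fbxl and 5 of 25 Fbxo promoters. The 11 promoters of the run are close to each other in sequence, with a median match of 91.0% over 55 pairs. A motif in 11 of 11 is thus not 11 independent finds, and the shares of all promoters beside it do not measure enrichment. The 6 motifs were picked after the run's sequences and values had been seen, and a match is a description of letters, not of a bound factor.

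The promoters of the run resembled each other in the bases that could be aligned. With gaps left out, which left at least 205 of the 250 bases, they matched at 84.3% to 97.3% in 55 pairs, with a median of 91.0%. For the 7 promoters elsewhere the 21 pairs matched at 52.2% to 65.6%, so a value near 60.4%, their median, is what unlike promoters gave by this measure. Coding sequences of the run matched at 80.2% to 99.1%, with a median of 84.3% over 91 pairs, and the 36 pairs of the 9 Fbxw genes elsewhere at 61.7% to 74.2%. Fbxw14 and Fbxw28 formed the closest pair of all, at 99.1%, and 44.8% and 46.2% of the 100-base windows of their transcripts occur exactly in a transcript of another gene. How the authors' counting treated reads that fit several genes is not given in the sources used here, so the separate levels of Fbxw14 and Fbxw28 are uncertain. For Fbxw16 and Fbxw15 the share of such windows was 8.3% and 7.31%, and for each of the other 10 members of the run it was at most 3.68%. Read length is not given, and shorter windows were shared more often. At 50 bases the share was 67.6% for Fbxw14, 67.1% for Fbxw28, 26.7% for Fbxw16, 17.0% for Fbxw15 and at most 13.2% for each other member. Among the Fbxw genes elsewhere the share of 100-base windows was 32.6% for Fbxw8 and 23.5% for Fbxw4, so their counts are uncertain as well.

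Fbxw24 was the highest F-box transcript, and in every library the same few members made up most of the run's RNA. Its FPKM (fragments scaled to gene length and library size, the deposited unit that allows levels of different genes to be compared) averaged 542.2 over the 6 libraries, 39th of 22046 protein-coding genes. The next members of the run were Fbxw14 at 200.1, Fbxw28 at 191.5, Fbxw22 at 153.1 and Fbxw18 at 141.7 FPKM, followed by Fbxw19 at 88.9, Fbxw15 at 66.6, Fbxw20 at 59.3, Fbxw16 at 53.8, Fbxw27 at 46.7 and Fbxw21 at 30.2. Fbxw26, Fbxw25 and Fbxw13 were the lowest, at 8.67, 5.58 and 5.04 FPKM. Genes of one run, alike in coding sequence, thus ranged from 5.04 to 542.2 FPKM. Spread over libraries left neighbours in this order unresolved: Fbxw14 was at 248.9 ± 37.5 FPKM in controls and Fbxw28 at 232.6 ± 41.5 (SD, n = 3 each).

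**Figure D1:**
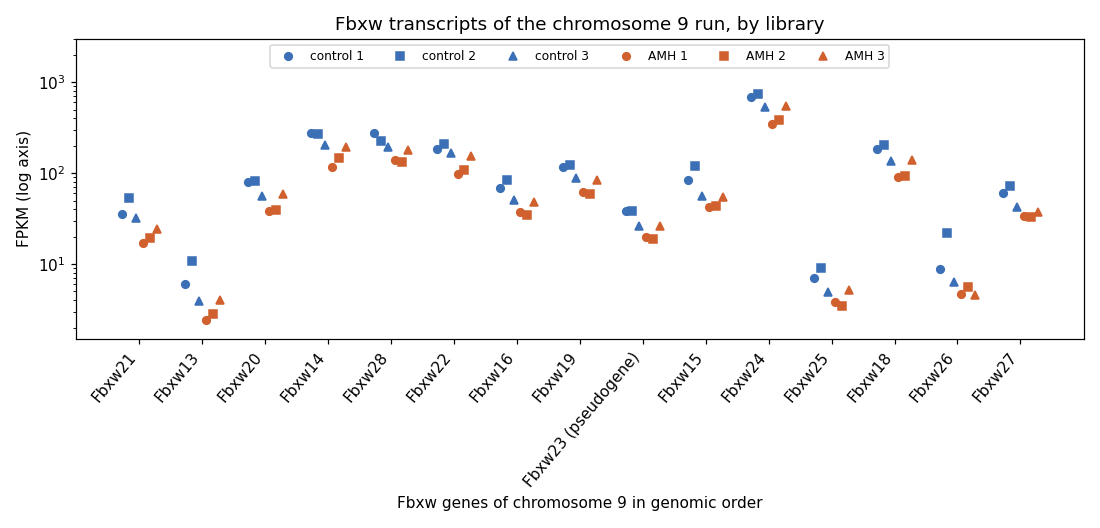
FPKM (log axis) of the Fbxw genes of the chromosome 9 run in genomic order, with 1 point per library (blue control, orange AMH, symbol by replicate number). AMH 1 and AMH 2 lie below the 3 controls at each gene, and AMH 3 lies close to control 3.

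Every coding member of the run had a lower fitted level with AMH, by 0.64 to 1.33 on the log2 scale, but none passed the adjusted threshold. In the fit of all 18868 tested genes by edgeR's quasi-likelihood test, 0 genes (0.0%) had a Benjamini-Hochberg adjusted p under 0.05, and the lowest adjusted p was 0.116. At an unadjusted p under 0.05, 14 of 14 members of the run were lower, where 17.3% of all tested genes were lower at that threshold. By DESeq2, 3 of the 14 passed an adjusted p under 0.05 with a lower level, where 6.93% of all tested genes did so. The median log2 fold change of the run was -0.75, against -0.01 over all tested genes. When libraries were scaled to the 20 oocyte markers instead, the median of all genes moved to 0.73, and that of the run became -0.03. Then 4 of its 14 members turned positive. Relative to the median of all genes the run stood at -0.73 in the first scaling and -0.76 in the second. A change of scaling moves nearly all genes by a common amount. Such relative values, here and for the groups below, therefore stay close by construction and are no test of the scaling.

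Fbxw24 gave 1071, 1154 and 850.1 CPM in controls 1, 2 and 3 and 520.4, 575.3 and 863.5 CPM in AMH 1, 2 and 3. AMH 1 and 2 were low, and AMH 3 lay just above control 3, so the groups overlapped. The log2 fold change was -0.65 ± 0.25 (standard error), with an adjusted p of 0.12 by edgeR and 0.0818 by DESeq2. Fbxw14 had 599.8, 586.2 and 460.4 CPM in controls and 248.9, 311.8 and 432.5 CPM with AMH, a log2 fold change of -0.73 ± 0.24. Fbxw28, its near copy, had 560.0, 454.4 and 405.2 CPM in controls and 273.0, 264.2 and 373.1 CPM with AMH, at -0.64 ± 0.21. In both, every AMH library was below every control, with AMH 3 the highest of its group and control 3 the lowest of its own.

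The same order of libraries held further down the scale of abundance. Fbxw22 ranged from 320.8 to 397.7 CPM in controls and from 183.6 to 300.0 CPM with AMH, and Fbxw19 from 323.1 to 448.8 and from 207.6 to 313.5 CPM, without overlap in either gene. Fbxw18 (219.9 to 319.2 against 140.7 to 226.2 CPM) and Fbxw20 (145.7 to 209.6 against 93.9 to 151.2 CPM) overlapped because AMH 3 exceeded control 3. Fbxw16 and Fbxw15, whose coding sequences belong to the same family, had log2 fold changes of -0.78 ± 0.25 and -0.90 ± 0.29. Across the run 9 of 14 members did not overlap between groups and were lower with AMH, where 23.3% of all tested genes were, and 0 were higher, where 26.9% of all were. All such counts were made on CPM with TMM factors, which were 0.942 for control 3 and 0.988 for AMH 3. They were not made under other scalings, with which they can change. The 5 that overlapped were Fbxw24, Fbxw18, Fbxw20, Fbxw25 and Fbxw13, in each of which AMH 3 was above control 3.

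Fbxw21, Fbxw27 and Fbxw26 were the 3 members that passed the DESeq2 threshold. Fbxw21, at the left end of the run, had 88.9, 135.3 and 82.8 CPM in controls and 42.6, 47.6 and 64.0 CPM with AMH; its log2 fold change was -0.99 ± 0.26, with an adjusted p of 0.116 by edgeR and 0.023 by DESeq2. Fbxw27, at the right end, had 118.3, 139.1 and 84.9 CPM against 63.9, 63.0 and 74.8 CPM, at -0.76 ± 0.22 and 0.0418 by DESeq2. Fbxw26 had 16.8, 41.6 and 12.1 CPM against 8.65, 10.4 and 8.99 CPM, at -1.33 ± 0.47 and 0.0453 by DESeq2. The AMH libraries of Fbxw26 were close together, and control 2 was far above the other controls. Control 2 was also the highest library of Fbxw13, at 17.2 CPM against 9.51 and 6.31 in the other controls and 3.68 to 6.54 with AMH.

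Summed over the 14 genes, the run reached 3999.6, 4262.7 and 3103.1 CPM in controls and 1934.7, 2061.2 and 3001.4 CPM with AMH. As a percentage of the summed oocyte markers, it was 9.21, 9.07 and 8.25 in controls and 8.82, 9.54 and 8.16 with AMH, or 8.84 ± 0.517 against 8.84 ± 0.689 (SD, n = 3 each). The run and the oocyte markers were thus high and low in the same libraries, with no gap between groups in their ratio. Within the summed FPKM of the run the shares also stayed near each other: Fbxw24 made up 33.7% in controls and 34.5% with AMH, Fbxw14 12.7% and 12.3%, and Fbxw28 11.9% and 12.4% (means of 3 libraries). The Fbxw23 pseudogene, which lies between Fbxw19 and Fbxw15 and is not a member, had 59.5, 60.6 and 42.4 CPM against 30.5, 28.7 and 41.9 CPM, at -0.69 ± 0.23. The genes flanking the run were mixed. On one side Tma7, Ccdc51 and Plxnb1 had log2 fold changes of 0.85 ± 0.25, 1.47 ± 0.86 and 0.32 ± 0.22, with overlapping groups in Plxnb1. On the other side Spink8, with at most 17 counts in any library, was not tested. Nme6 and Camp there were at 1.17 ± 0.36 and 3.09 ± 0.54, Camp on 15, 8 and 16 counts in controls 1 to 3. Cdc25a, the next gene beyond Camp, was at -0.67 ± 0.23.

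The libraries control 3 and AMH 3 decided whether members of the run passed the edgeR threshold. Without control 3, 12 of 14 passed with a lower level, where 11.2% of all tested genes did. Without AMH 3, 7 of 14 passed, where 6.73% of all genes did, and without both 13 of 14, where 21.6% did. The median log2 fold change of the run was between -0.99 and -0.61 whichever single library was left out. With control 2 and AMH 1, the libraries farthest apart, left out together, 0 of 14 passed.

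**Figure D2:**
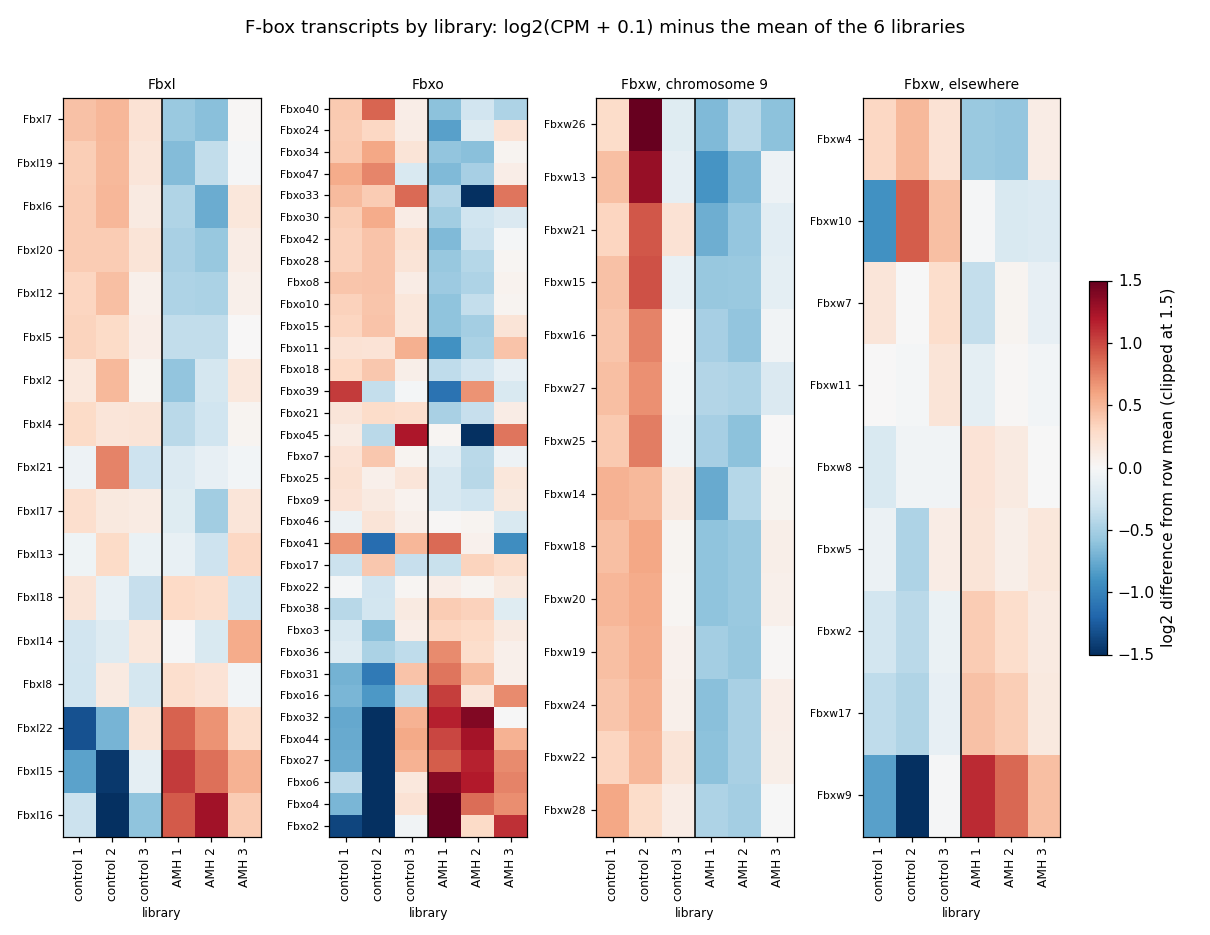
Log2(CPM + 0.1) of tested F-box genes (1 Fbxl gene not drawn) in each library minus the mean of its 6 libraries, in panels for Fbxl, Fbxo, the Fbxw run on chromosome 9 and Fbxw elsewhere; colours are limited to differences of 1.5. Controls 1 and 2 and AMH 1 and 2 take opposite colours in most rows, and control 3 and AMH 3 are paler and alike.

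The 9 Fbxw genes elsewhere in the genome did not show the lower levels of the run: their median log2 fold change was 0.23, with 5 positive and 4 negative values. Added up, they came to 392.1, 390.3 and 427.2 CPM in controls 1 to 3, against 394.5, 395.8 and 409.8 CPM in AMH 1 to 3, so the groups overlapped. At an unadjusted p under 0.05, 3 were higher, where 20.2% of all tested genes were, and 1 was lower. The difference between the 9 genes and the run was not tested. With the oocyte markers as the scale all 9 were positive, with a median of 0.99, which is 0.26 relative to that of all genes, against 0.24 in the first scaling.

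Fbxw9 and Fbxw17 were the 2 that passed the DESeq2 threshold, both with higher levels, where 16.0% of all tested genes did so. Fbxw9 had 6.73, 3.88 and 11.7 CPM in controls and 25.8, 21.6 and 16.3 CPM with AMH. All AMH libraries were above all controls, and control 3 was the highest control and AMH 3 the lowest AMH library. Its log2 fold change was 1.51 ± 0.43, with an adjusted p of 0.116 by edgeR and 0.0152 by DESeq2. Fbxw17 had 9.97, 9.49 and 11.98 CPM against 17.7, 16.9 and 14.4 CPM, at 0.64 ± 0.22 and 0.0333 by DESeq2. The promoters of these 2 genes, printed above, lack TTTAAA in the stretch shown, and that of Fbxw9 also lacks CAGCTG there. Such absence was common. In the longer stretch searched above, TTTAAA stood in 12.1% of all promoters and 1 of 7 Fbxw promoters outside the run. For CAGCTG these values were 12.8% and 2 of 7. The 7 include Fbxw7, Fbxw10 and Fbxw11, whose log2 fold changes were negative. Whether the letters go with the direction of change was not tested.

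The Fbxw genes with the best known substrates showed no difference beyond the spread between libraries. Fbxw7, the receptor for cyclin E, Myc, Jun and Notch, had 22.5, 19.7 and 23.9 CPM in controls and 15.4, 20.4 and 18.2 CPM with AMH, a log2 fold change of -0.29 ± 0.21 with overlapping groups. Fbxw11, a beta-TrCP protein that reads phosphorylated beta-catenin and I-kappa-B, had 120.9 to 140.2 and 111.2 to 124.3 CPM, at -0.12 ± 0.15. Fbxw11 was the most abundant of the 9, at 27.4 FPKM, next to Fbxw4 at 26.8 FPKM. Fbxw4, also called dactylin, was the member with a lower level at an unadjusted p under 0.05, with 105.3, 118.6 and 98.4 CPM against 57.7, 56.7 and 91.3 CPM (-0.65 ± 0.23, adjusted p = 0.118 by edgeR). Fbxw2 had 21.4 to 26.6 CPM in controls and 31.3 to 37.3 CPM with AMH, at 0.52 ± 0.19, without overlap. Fbxw8, which assembles with Cul7, was at 0.23 ± 0.15, Fbxw5 at 0.28 ± 0.19, and Fbxw10, with at most 0.577 CPM in any library, at -0.64 ± 0.66.

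Of the Fbxl genes, whose products read substrates with leucine-rich repeats, 12 of 18 were negative, where 50.3% of all tested genes were. Their median log2 fold change was -0.32. With library size alone 10 of 18 were negative, at a median of -0.056. In the edgeR fit 0 of 18 passed. At an unadjusted p under 0.05, 7 were lower and 3 higher, where 17.3% of all tested genes were lower and 20.2% higher. Without overlap between groups 6 were lower and 3 higher, where 23.3% and 26.9% of all were. DESeq2 passed 2 in each direction, where it passed 6.93% of all genes as lower and 16.0% as higher. With the oocyte markers as the scale 17 of 18 were positive, at a median of 0.41, which is -0.33 relative to that of all genes, against -0.31 in the first scaling.

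Fbxl6 was the most abundant of them, at 260.6 FPKM, 110th of all protein-coding genes and the second highest F-box transcript. It had 735.1, 792.3 and 620.1 CPM in controls and 412.1, 335.9 and 634.5 CPM with AMH. AMH 3 lay between controls 3 and 1 and the other AMH libraries far below, so the groups overlapped (log2 fold change -0.64 ± 0.26). Fbxl5, the iron sensor that sends the iron regulatory protein Ireb2 to the proteasome, had 323.0, 313.4 and 275.6 CPM in controls and 198.7, 199.2 and 257.1 CPM with AMH, at -0.48 ± 0.17. Fbxl20 had 366.4, 366.2 and 321.6 CPM against 201.1, 191.0 and 304.9 CPM, at -0.60 ± 0.22. Both were lower in every AMH library, with AMH 3 nearest to the controls. Fbxl4, a protein of mitochondria that limits their removal by mitophagy, ranged from 54.9 to 58.7 CPM in controls and from 36.4 to 49.7 CPM with AMH, at -0.43 ± 0.18.

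Fbxl7 and Fbxl19 were the Fbxl genes with lower levels by DESeq2. Fbxl7 had 29.3, 30.4 and 25.1 CPM against 14.6, 13.9 and 21.8 CPM (log2 fold change -0.75 ± 0.25, DESeq2 adjusted p = 0.0398). Fbxl19, which binds unmethylated CpG islands with a CXXC domain, had 63.9, 69.3 and 56.2 CPM against 31.4, 38.2 and 48.9 CPM (-0.68 ± 0.21, DESeq2 adjusted p = 0.0477). In both genes the groups did not overlap.

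Fbxl15 and Fbxl16 were higher by DESeq2. Fbxl15, known for directing the ubiquitin ligase Smurf1 of the BMP pathway to degradation, had 2.19, 1.37 and 3.50 CPM in controls and 8.17, 7.00 and 5.64 CPM with AMH. Every AMH library exceeded every control, at a log2 fold change of 1.56 ± 0.40, with an adjusted p of 0.116 by edgeR and 0.00638 by DESeq2. Fbxl15 overlaps Cuedc2 on the opposite strand over 635 bases, and Cuedc2 had a mean of 1824 counts against 338 for Fbxl15; whether the counting used strand is not given in the sources used here. Fbxl16 stayed below 1 CPM in all libraries, from 0.0156 to 0.186 CPM in controls and from 0.366 to 0.759 CPM with AMH. Fbxl22 had 1.54, 2.38 and 4.50 CPM against 7.33, 6.32 and 4.73 CPM (1.13 ± 0.44), and it shares 317 bases with Herc1 on the opposite strand.

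Other Fbxl genes had smaller values or overlapping neighbours. Fbxl21 was at -0.33 ± 0.38. Fbxl12 was lower without overlap, at -0.56 ± 0.22, but it overlaps the more strongly counted Ubl5 on the other strand. Fbxl17, a quality control receptor for BTB-domain dimers, was at -0.32 ± 0.21, and Fbxl2, held on membranes by a lipid tail, at -0.44 ± 0.29. Fbxl8, Fbxl14 and Fbxl18 were at 0.28, 0.23 and 0.19, and Fbxl13, at -0.08, lay below 1 CPM throughout. Fbxl14, a receptor for Snai1, was at -0.0651 without AMH 3. Among all members, 15 share bases with another gene that has at least 10% of their mean count, so their counts are uncertain: beside Fbxl12, Fbxl15 and Fbxl22 they are Fbxl2, Fbxl13, Fbxl14 and Fbxl16, Fbxo11, Fbxo15, Fbxo22, Fbxo24, Fbxo36 and Fbxo46, and Fbxw4 and Fbxw10.

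Fbxo is the mixed group, and it held both positive and negative values, with the negative ones in several abundant transcripts. Of 34 tested genes 21 were negative, where 50.3% of all tested genes were, and 13 positive. Their median log2 fold change was -0.37, and 0 passed in the edgeR fit. Fbxo48, at 0.0303 to 0.186 CPM, did not reach the count filter. At an unadjusted p under 0.05, 8 were lower and 4 higher, against 17.3% and 20.2% of all tested genes. DESeq2 passed 4 lower and 3 higher, against 6.93% and 16.0% of all. Groups did not overlap in 10 genes that were lower and 8 that were higher, against 23.3% and 26.9% of all. By each measure the lower genes were somewhat above the share of all genes and the higher ones below it. These differences came to a few genes each and were not tested. With the oocyte markers as the scale 29 of 34 were positive, at a median of 0.35, which is -0.38 relative to that of all genes, against -0.36 in the first scaling.

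The 5 most abundant Fbxo genes were all lower in each AMH library than in any control, where 23.3% of all tested genes were. They were picked by abundance, and 66.8% of all tested genes with a mean of at least 10 FPKM had a negative log2 fold change. Fbxo34, at 138.7 FPKM, had 772.5, 881.7 and 673.7 CPM in controls and 390.1, 381.8 and 602.1 CPM with AMH (log2 fold change -0.76 ± 0.23, adjusted p = 0.116 by edgeR and 0.0431 by DESeq2). Fbxo42, which has been linked to p53 turnover, had 428.3, 452.9 and 395.2 CPM against 213.0, 269.9 and 328.6 CPM (-0.65 ± 0.20, DESeq2 adjusted p = 0.0447). Fbxo21 had 459.1, 491.3 and 483.0 CPM against 287.7, 317.9 and 438.3 CPM, at -0.46 ± 0.20. Fbxo18, a DNA helicase, and Fbxo28 followed at -0.53 ± 0.16 and -0.62 ± 0.20. In these genes too AMH 3 was the AMH library nearest to the controls.

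A set of 3 Fbxo genes is best known from muscle wasting, and its members did not share a direction. Fbxo30 had 119.1, 135.9 and 99.6 CPM in controls and 63.9, 74.5 and 79.2 CPM with AMH (log2 fold change -0.70 ± 0.18, DESeq2 adjusted p = 0.0293). Fbxo40 had 39.9, 56.0 and 32.7 CPM against 19.8, 24.9 and 22.1 CPM (-0.95 ± 0.25, DESeq2 adjusted p = 0.0243). Both were lower without overlap, and in Fbxo40 the AMH 3 library lay between the other AMH libraries. Fbxo32, called atrogin-1 and a target of FoxO factors, had 19.6, 6.64 and 48.0 CPM in controls and 75.1, 87.1 and 33.1 CPM with AMH, at 1.40 ± 0.71 with overlapping groups. Its lowest library was control 2, which also had the lowest cumulus or granulosa sum.

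The 5 genes of the F-box associated domain family, among them receptors for N-glycosylated proteins, all had positive log2 fold changes, but 1 of the 5 had an unadjusted p under 0.05 (20.2% of all tested genes were higher at that threshold) and 0 passed in the edgeR fit. Groups did not overlap in 3 of the 5, which were higher, against 26.9% of all, and under upper-quartile scaling 1 of the 5 was negative. This group was formed after the values were seen. Fbxo6 had 9.35, 1.39 and 13.8 CPM in controls and 32.0, 28.2 and 20.8 CPM with AMH (log2 fold change 1.72 ± 0.73, adjusted p = 0.137 by edgeR and 0.0538 by DESeq2). Fbxo44, beside it on chromosome 4, had 1.36, 0.312 and 3.58 CPM against 4.87, 5.76 and 3.46 CPM, at 1.42 ± 0.78. Fbxo2, on chromosome 4 as well, was at most 0.228 CPM in controls, with 0 counts in control 2, and at 1.08, 0.314 and 0.626 CPM with AMH (2.94 ± 1.13, a value that depends on the small count added in the fit). It passed the DESeq2 threshold as higher (DESeq2 adjusted p = 0.0462), on 2, 0 and 15 counts in controls 1, 2 and 3. Fbxo27 and Fbxo17, neighbours on chromosome 7, were at 1.62 ± 1.10 and 0.17 ± 0.36. Over the 5 genes the sum was 12.9, 4.91 and 20.3 CPM in controls and 40.8, 38.5 and 28.7 CPM with AMH, with control 2 lowest and control 3 highest among controls, as in the cumulus or granulosa sum.

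Beside Fbxo2, Fbxo4 and Fbxo16 were the Fbxo genes with higher levels by DESeq2. Fbxo4, a receptor for cyclin D1, had 2.98, 0.701 and 5.66 CPM in controls and 14.4, 8.73 and 7.90 CPM with AMH (log2 fold change 1.73 ± 0.71, adjusted p = 0.129 by edgeR and 0.0471 by DESeq2). Fbxo16 had 1.33, 1.17 and 1.68 CPM against 4.63, 2.52 and 3.69 CPM (1.37 ± 0.35, DESeq2 adjusted p = 0.0053). Neither Fbxo4 nor Fbxo16 overlapped between groups. Fbxo36 was higher without overlap as well, at 3.83 to 4.67 CPM against 5.64 to 8.77 CPM (0.73 ± 0.28), and it overlaps Trip12, whose mean count was 28190 against 398.3.

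Some Fbxo genes set 1 AMH library apart. Fbxo33 had 110.3, 103.6 and 143.5 CPM in controls and 58.5, 18.9 and 139.2 CPM with AMH, and Fbxo45, part of an atypical ligase of the nervous system, 10.6, 7.28 and 22.5 CPM against 9.86, 2.79 and 16.9 CPM. In both AMH 2 was lowest and control 3 and AMH 3 were the highest of their groups, and the standard errors of 0.64 and 0.70 were nearly as large as or larger than the log2 fold changes of -0.72 and -0.45. Fbxo11, which targets Bcl6, was at -0.53 ± 0.35, Fbxo15, known from embryonic stem cells, at -0.57 ± 0.27, and Fbxo7, tied to proteasome assembly and parkinsonism, at -0.43 ± 0.19. Fbxo47, a gene of meiotic prophase, had 2.75 to 5.42 CPM in controls and 2.01 to 3.46 CPM with AMH, at -0.75 ± 0.38. Fbxo8 and Fbxo10 were lower without overlap, at -0.62 ± 0.21 and -0.60 ± 0.20, and Fbxo3 and Fbxo22 higher without overlap, at 0.48 ± 0.22 and 0.19 ± 0.18. Fbxo31 was at 0.79 ± 0.43 and Fbxo38 at 0.37 ± 0.23, while Fbxo9, Fbxo25 and Fbxo46 lay between -0.30 and -0.12. Fbxo24, Fbxo39 and Fbxo41 had under 1 CPM in every library and standard errors of 0.70 to 1.25.

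**Figure D3:**
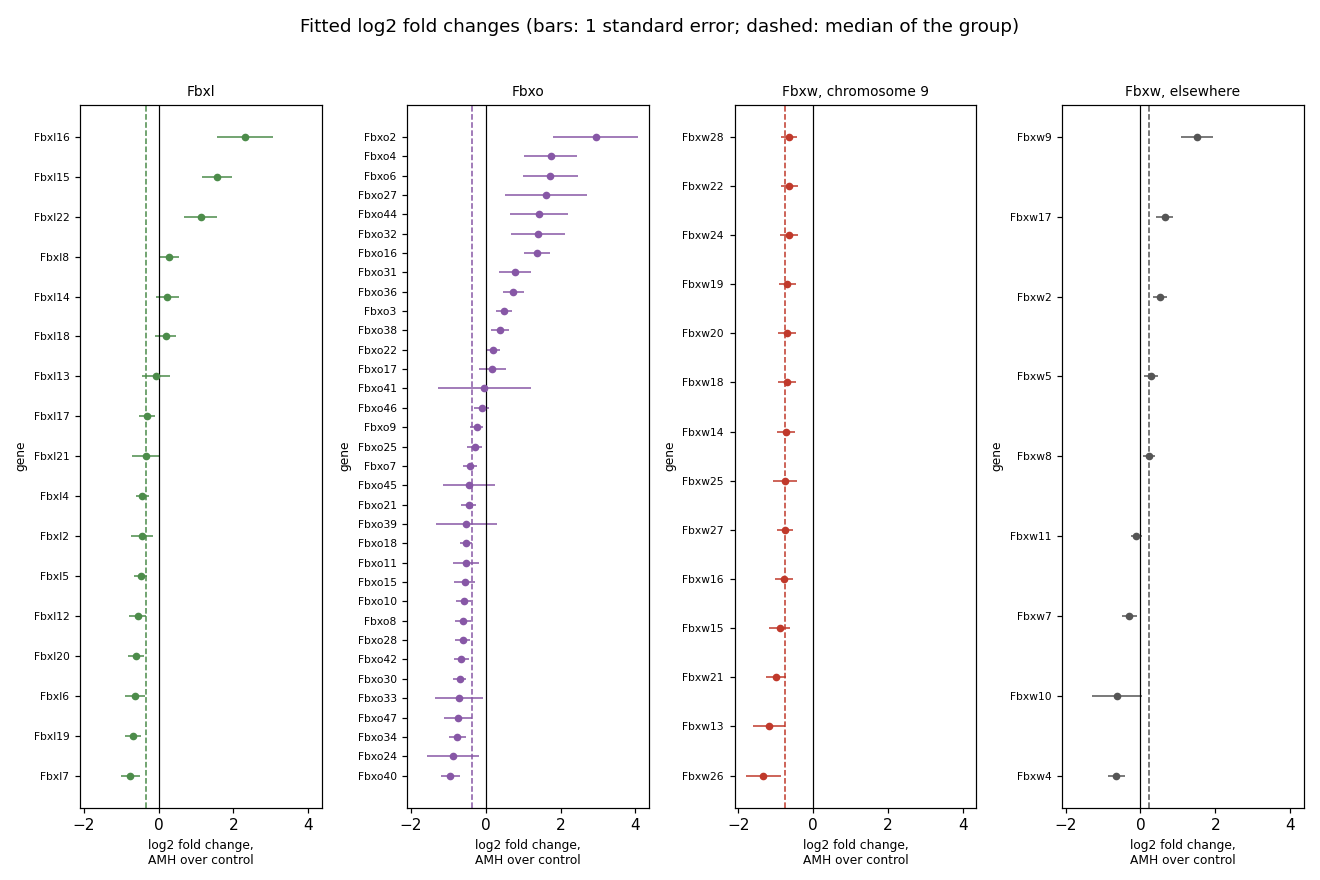
Fitted log2 fold changes, AMH over control, of the tested F-box genes (1 Fbxl gene not drawn) with 1 standard error, by group; dashed lines are group medians. The 14 genes of the chromosome 9 run lie between -1.33 and -0.64, and the other groups span both sides of 0; under scaling to the oocyte markers 4 of the 14 lie above 0.

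Over all groups 24 tested members were positive and 51 negative, where 50.3% of all tested genes had a negative log2 fold change. More of the abundant members were negative. Among the 33 members with a mean of at least 10 FPKM, 29 were negative, with a median of -0.64, and among all 4292 tested genes of that level 66.8% were negative, with a median of -0.40. The 33 include every member of the chromosome 9 run except Fbxw26, Fbxw25 and Fbxw13. All members of that run were negative, so this count partly restates the run. Among the 31 members from 1 to 10 FPKM 16 were negative (45.9% of all genes of that level), and among the 11 under 1 FPKM 6 were (45.0%). These bands were set after the values were seen. Across the 75 genes, which share the same 6 libraries and are not independent replicates, log2 mean FPKM and log2 fold change had a Pearson r of -0.47 and a Spearman rho of -0.51, against -0.18 and -0.15 over all 18868 tested genes. The 9 Fbxw genes elsewhere showed no such relation, at 0.085 and -0.05. Inside the chromosome 9 run the relation had the other sign, with r = 0.74 and rho = 0.78 over 14 genes. Fbxw26 and Fbxw13, at 8.67 and 5.04 FPKM, had the most negative values of the run. Fbxw25, at 5.58 FPKM, did not share this: its value of -0.76 was near the run's median of -0.75.

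**Figure D4:**
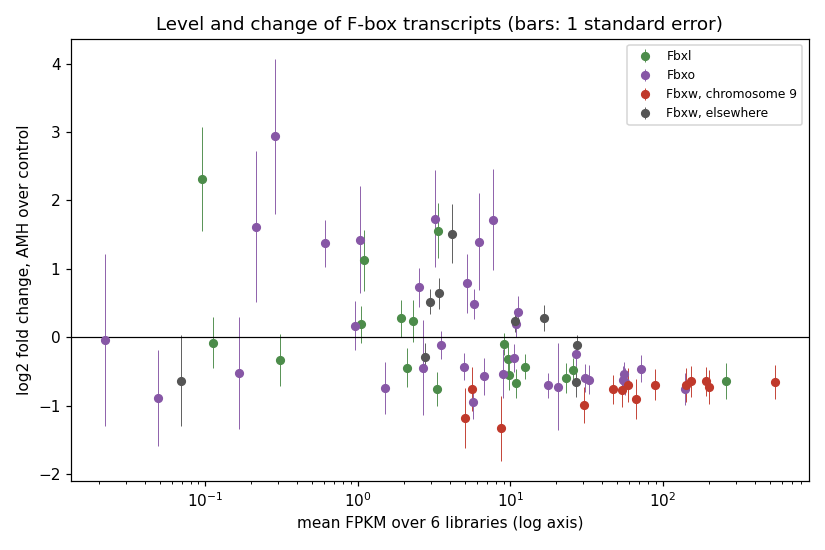
Mean FPKM over 6 libraries (log axis) against the fitted log2 fold change, AMH over control, of the 75 tested F-box genes, with 1 standard error and colour by group. Of the 33 genes at or above 10 FPKM 29 lie below 0, and none of the 33 lies above 0.37; on the oocyte markers most of the 75 lie above 0.

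The proteins that F-box proteins work with gave no common direction. In the edgeR fit 0 of 65 genes on 7 lists passed, and at an unadjusted p under 0.05, 11 were higher and 16 lower, against 20.2% and 17.3% of all tested genes. The counts of single lists that follow are to be read against the same shares. The median log2 fold change of the 65 genes was -0.15 with TMM scaling, 0.12 with library size alone and 0.55 on the oocyte markers, which is -0.14, -0.14 and -0.18 relative to the median of all genes. In the core of the ligase, Cul1 had 1666, 1706 and 1504 CPM in controls and 776.8, 913.7 and 1408 CPM with AMH, with no overlap and AMH 3 nearest to the controls (-0.65 ± 0.25, adjusted p = 0.121 by edgeR). Skp1a, the gene for the adaptor Skp1, had 283.5, 342.4 and 228.2 CPM against 227.0, 240.9 and 234.5 CPM (-0.28 ± 0.19), and Rbx1 106.3 to 137.3 CPM against 113.0 to 131.3 CPM (-0.05 ± 0.17), with overlap in both. Per length, Cul1 stood at 316.1, Skp1a at 113.1 and Rbx1 at 26.2 FPKM, so the Fbxw24 level was above that of each of the 3 genes.

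Among the 13 genes of the Nedd8 list 4 had positive and 9 negative log2 fold changes. Nedd8 had 28.1, 24.4 and 32.0 CPM in controls and 53.6, 45.0 and 49.7 CPM with AMH (log2 fold change 0.81 ± 0.18, adjusted p = 0.116 by edgeR and 0.00529 by DESeq2). Dcun1d1, which helps load Nedd8 onto cullins, had 288.1, 301.6 and 237.6 CPM against 137.8, 162.3 and 188.7 CPM (-0.76 ± 0.18, DESeq2 adjusted p = 0.02). Neither overlapped between groups. Of the 13 genes on this list 1 was higher and 4 were lower at an unadjusted p under 0.05. Among the 10 COP9 signalosome genes 3 were higher and 1 was lower, with Cops5, the catalytic subunit, at 0.76 ± 0.22 and Cops8 at -0.55 ± 0.21.

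Among 7 ubiquitin-conjugating enzymes 2 were higher and 3 lower at that threshold, with Ube2l3 at 1.19 ± 0.35 and Ube2g1 at -0.59 ± 0.17. Of 5 F-box genes under other symbols, Kdm2b, a histone demethylase, was at -0.67 ± 0.26 and Kdm2a at 0.32 ± 0.21; Skp2, Btrc and Ccnf lay between -0.39 and -0.12. Of 11 parts of other cullin ligases 3 were higher and 2 lower, with Elob, the elongin B adaptor, at 1.75 ± 0.43 (DESeq2 adjusted p = 0.00628) and Cul4b at -0.64 ± 0.18 (DESeq2 adjusted p = 0.0434). Of 16 textbook substrates 2 were higher and 4 lower. Ireb2, the substrate of Fbxl5, had 208.9, 223.2 and 215.7 CPM in controls and 104.5, 154.9 and 145.3 CPM with AMH (-0.68 ± 0.19), and Myc, a substrate of Fbxw7, 37.0, 7.84 and 45.2 CPM against 145.5, 114.3 and 54.1 CPM (1.80 ± 0.67). These are levels of RNA, and the amounts of the proteins were not measured.

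**Figure D5:**
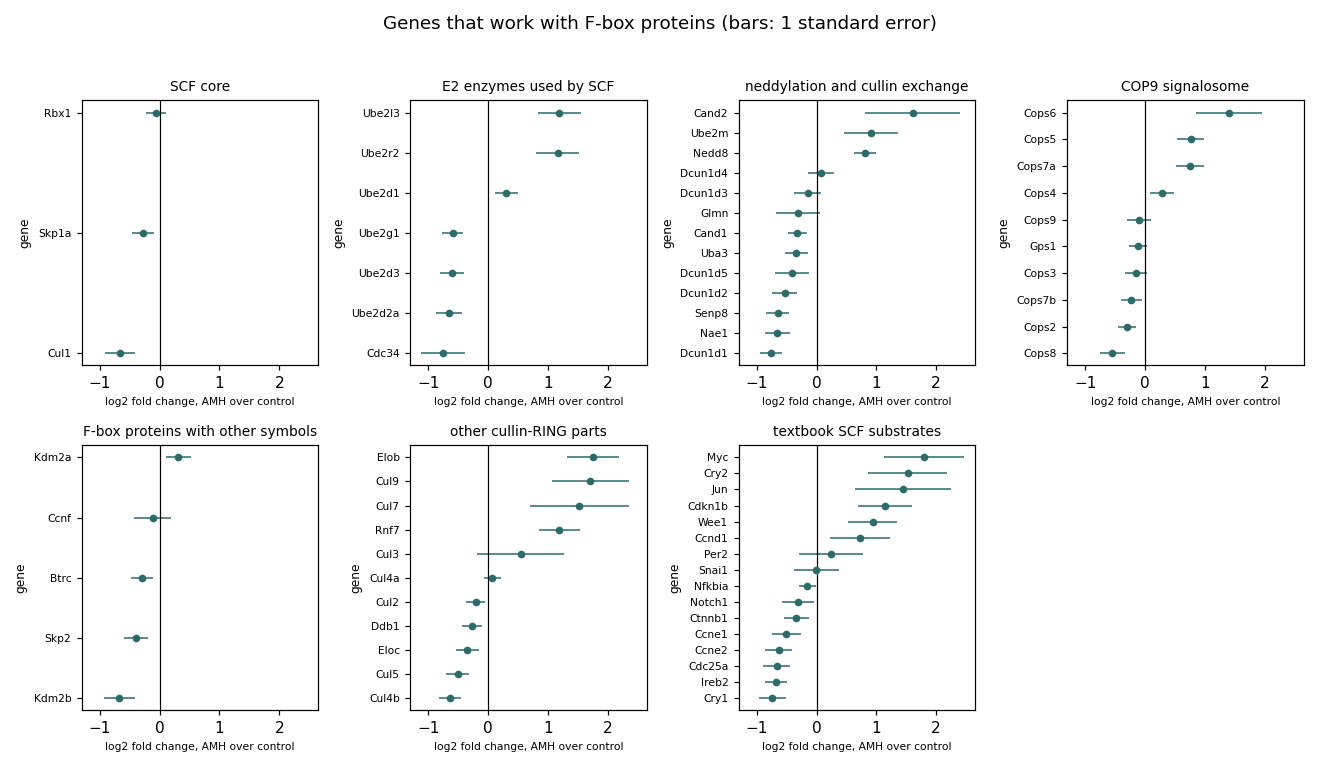
Fitted log2 fold changes, AMH over control, with 1 standard error, of 65 genes on 7 lists of SCF partners, regulators and substrates. Each list other than the 3 core genes holds values on both sides of 0, and the core genes lie between -0.65 and -0.05; on the oocyte markers the 3 core genes lie above 0.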

How the data were processed

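The authors deposited raw counts per gene and FPKM for the same 6 libraries; counts are whole numbers, and FPKM are the authors' own, per the file headers. RNA was made into cDNA with a SMART v4 kit and selected for poly(A), per the labels' protocols. The submitters' processing notes name, with no role, the tools HISAT2 2.0.5, then featureCounts (version 1.5.0-p3) and also DESeq2 1.20.0. As builds they name mm10 beside GRCm38. No source used here states the strand setting or read length. Counts were fitted by group in edgeR 4.0.16 (filterByExpr, TMM, robust quasi-likelihood test, Benjamini-Hochberg over 18868 genes), tested first on simulated data. DESeq2 1.42.0, limma 3.58.1, other scalings and filters and left-out libraries were alternatives. CPM are TMM-scaled. Standard errors are the log2 fold change divided by the root of F. The members and lists were chosen with earlier results of these data known. Named were the SCF core, every tested Fbxw gene, in Fbxl and Fbxo the 5 of highest FPKM and the 4 of smallest p in each direction at a mean of at least 1 CPM, and in each list the smallest p in each direction; other genes were named after their values were seen. A single Fbxl gene is in the counts and medians but is not reported here by itself. All pathway lists were pooled into 1 count after values were seen. Coordinates are those of the files (GRCm38). Identity came from global alignments (Biopython) of RefSeq promoters and of GENCODE M21 coding sequences. Counting error was not computed by itself. It is not small for members with few counts, such as Fbxo2, with 2, 0 and 15 counts in controls 1, 2 and 3. For well counted genes the spread between libraries limits precision.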

Additional observations from a re-analysis of the deposited data

How the results depend on the processing

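Counts of genes with an adjusted p under 0.05 depended on the tool and on 2 libraries. The main fit passed 0 of 18868 genes and so 0 members; DESeq2 passed 4324 genes (4 Fbxl, 7 Fbxo, 5 Fbxw, of these 3 in the chromosome 9 run and 2 elsewhere, and 15 of the 65 pathway genes). Limma-voom with sample quality weights passed 14130 genes (13, 29, 19, 14, 5 and 50 in the same order), and leaving out control 3 and AMH 3 together passed 9885 (9, 21, 17, 13, 4 and 35). The quality weights were 6.58, 0.676 and 0.308 for controls 1 to 3 and 0.938, 3.11 and 0.25 for AMH 1 to 3. That fit thus rested mostly on control 1 and AMH 2 and gave control 3 and AMH 3 the least weight. The cause of the differences between these counts was not tested. Leaving out 1 library at a time gave 0 to 7513 genes: 0 to 5 Fbxl, 0 to 12 Fbxo, 0 to 14 Fbxw, 0 to 12 in the run, 0 to 2 elsewhere and 0 to 26 pathway genes. The counts above 0 came without control 3 (7513 genes) or without AMH 3 (1607). Median log2 fold changes then ranged from -0.48 to -0.25 for Fbxl, -0.43 to -0.18 for Fbxo, -0.93 to -0.58 for Fbxw, -0.99 to -0.61 for the run, 0.13 to 0.25 elsewhere and -0.25 to -0.15 for the pathway genes. RLE scaling, other filters, voom without weights and limma on log2 FPKM passed 0 genes and kept these medians within the spread between libraries.

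Scaling moved the medians. Library size alone gave -0.056 for Fbxl, -0.10 for Fbxo, -0.39 for Fbxw, 0.51 elsewhere and 0.12 for the pathway genes. Upper-quartile scaling gave -0.56, -0.56, -0.88, 0.0061 and -0.38, and the oocyte markers 0.41, 0.35, 0.0333, 0.99 and 0.55, with -0.0255 for the run. These scalings moved the median of all genes itself to 0.26, -0.23 and 0.73. Quality weights gave -0.55 for Fbxo, -0.89 for Fbxw and -0.23 for the pathway genes. Without control 3 and AMH 3 the median was -0.54 for Fbxl and -1.001 for Fbxw, and without control 2 and AMH 1 it was -0.18 for Fbxl.

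On the oocyte markers these genes had the opposite sign: Cops8 0.15, Cul1 0.0168, Cul4b 0.0937, Fbxl19 0.029, Fbxl20 0.0861, Fbxl4 0.27, Fbxl5 0.24, Fbxl6 0.0374, Fbxo18 0.21, Fbxo21 0.23, Fbxo28 0.0772, Fbxo30 0.0404, Fbxo42 0.0536, Fbxw10 0.12, Fbxw11 0.62, Fbxw19 0.0087, Fbxw22 0.0425, Fbxw24 0.0398, Fbxw28 0.0631, Fbxw4 0.0333, Fbxw7 0.44, Ireb2 0.0549, Kdm2b 0.13, Rbx1 0.69, Skp1a 0.49 and Ube2g1 0.14. Library size alone gave Fbxw11 0.16 and Rbx1 0.22, and quality weights gave Fbxw10 0.86. With 1 library left out, Rbx1 ranged from -0.17 (without control 3) to 0.0043 (without control 1), and Fbxl14 from -0.0651 (without AMH 3) to 0.38 (without AMH 2). Rbx1 was at 0.0007 without control 2 and AMH 1 together.

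Replicate numbers did not pair the libraries, with correlations of same-numbered deviations of 0.06, -0.10 and -0.25. With the replicate number as a block 0 genes passed, and the medians were -0.30 for Fbxl, -0.38 for Fbxo, -0.68 for Fbxw and -0.74 for the run.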
